A study of Mus musculus with 6 samples.

Results

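The genes described here carry long-chain fatty acids into the heart muscle cell and oxidise them in the mitochondrion, together with some of the transcriptional regulators of that pathway and genes of the type that the receptor PPAR-alpha switches on. They are 31 genes, taken by mapping the Ensembl identifiers of the expression table to a list of symbols, out of 20254 genes in the table. Each of the 31 was present and passed the filter on low values, which left 13823 genes tested. RNA was measured in hearts of adult C57BL/6 mice of 2 genotypes: unmodified mice (WT) and mice with a knockout of Trdn-as, the RNA antisense to the triadin gene (KO). There were 3 libraries of each genotype. In each genotype the libraries numbered 1 and 2 came from mice of 14 months and the library numbered 3 came from a mouse of 5 months. No treatment was named. The labels do not give the sex, the feeding state, the design of the knockout allele or whether the same number in both genotypes stands for littermates. Trdn-as itself was not analysed here, so the genotype of each library rests on its title.

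Fatty acids released from circulating lipoproteins enter the cardiomyocyte through the transporter Cd36 and are bound in the cytosol by Fabp3. Acsl1 activates them to acyl-CoA, and Cpt1, Slc25a20 and Cpt2 carry them across the inner mitochondrial membrane as carnitine esters. Each round of beta-oxidation then begins with an acyl-CoA dehydrogenase matched to the chain length, whose electrons pass through Etfa, Etfb and Etfdh to the respiratory chain. The adult heart draws most of its energy from this pathway. PPAR-alpha and its coactivator PGC-1alpha (Ppargc1a) raise transcription of many of these genes, and Pdk4, Ucp3 and Angptl4 are known in muscle as targets that respond strongly to fasting.

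The libraries were clearly of heart, and their sequencing depth is unknown because the values are normalized. The normalized values summed to 19810148 to 23510139 per library, of which transcripts of the mitochondrial genome took 40.0% to 49.4%. All 10 cardiomyocyte markers looked up were present, with Myh6 at 159955 to 400427, while the liver markers summed to at most 9.71 and the skeletal myosins Myh1 and Myh2 were at most 1.84 and 1.24. The 31 genes made up 1.93% to 2.23% of the nuclear-encoded total in the 4 libraries of 14 months, against 2.59% in WT-3 and 2.72% in KO-3. Levels of different genes are compared below as normalized value per kb of the principal transcript, and each gene across libraries as the normalized value itself, listed for replicates 1, 2 and 3 in that order. In bulk tissue such as this, fewer cells of a type and less RNA per cell cannot be told apart.

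Per kb, Fabp3, the cytosolic carrier, stood far above the other members at 53127 ± 25524 (SD, n = 6 libraries). Hadhb, the beta subunit of the mitochondrial trifunctional protein, followed at 12936 ± 4074 per kb, then Cd36 at 9751 ± 2263 and the medium-chain dehydrogenase Acadm at 8445 ± 1279. Hadhb was above both Cd36 and Acadm per kb in each of the 6 libraries, whereas the ranges of Cd36 and Acadm overlapped. Etfb led the electron-transfer genes at 6871 ± 4524 per kb. Pdk4, the kinase that shuts pyruvate out of the citric acid cycle, led the PPAR-type targets at 3462 ± 2526 per kb. Cpt1b, the carnitine palmitoyltransferase of muscle mitochondria, was the highest carnitine shuttle gene at 2466 ± 477 per kb. The liver-type isoform Cpt1a lay at 186 ± 27.3 per kb. The regulator Ppargc1a reached 345 ± 89.3 per kb. Angptl4, a secreted inhibitor of lipoprotein lipase, and Acot1, a cytosolic acyl-CoA thioesterase, were lowest at 64.2 ± 38.8 and 99.7 ± 46.8 per kb.

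**Figure D1:**
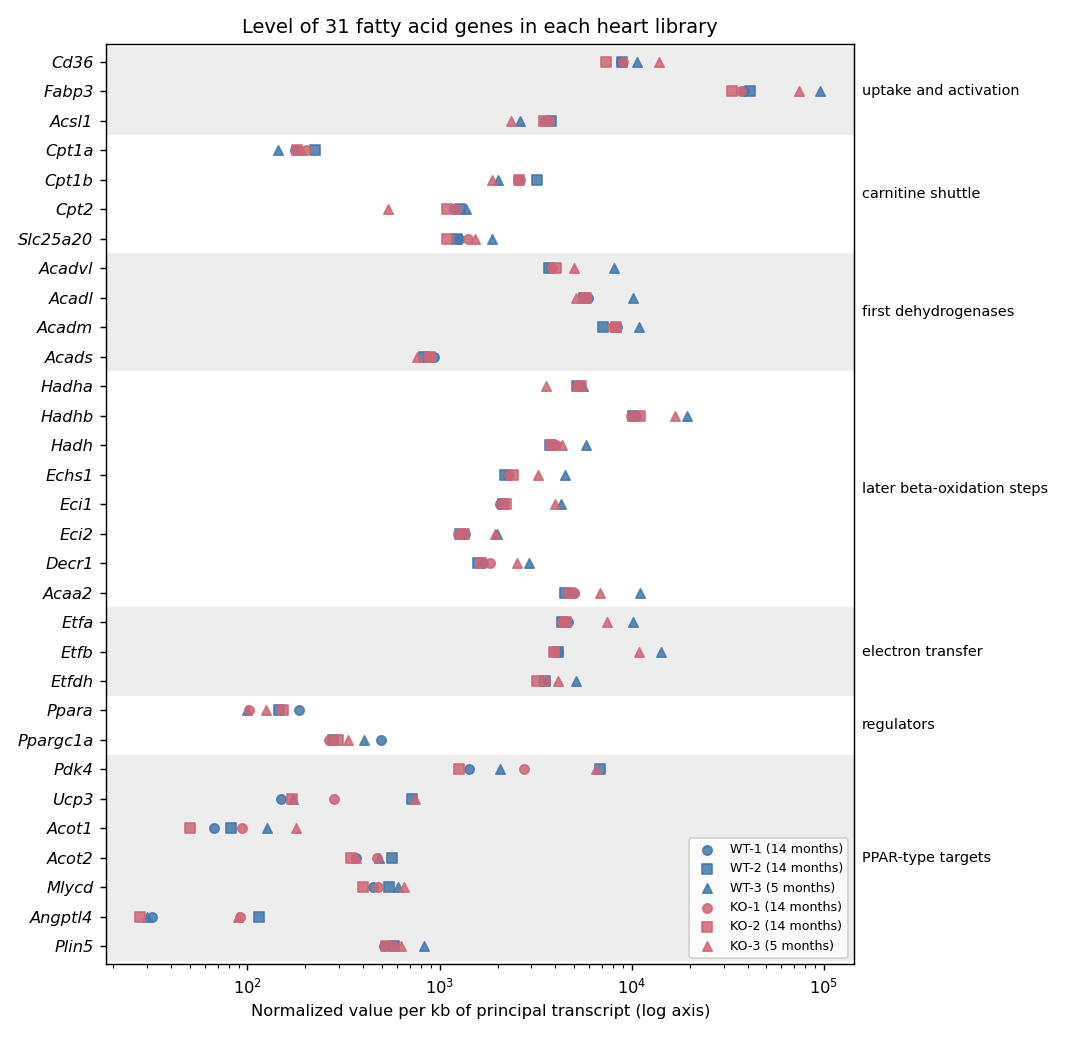
Normalized value per kb of principal transcript (log axis) of the 31 genes, with 1 point per library, coloured by genotype and shaped by replicate number. Triangles are the libraries of 5 months. Fabp3 sits highest and Angptl4 lowest, and for Etfb, Etfa, Eci1 and Hadhb both triangles lie to the right of all other points.

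PPAR-alpha binds with its partner RXR to a direct repeat of a short hexamer with 1 base between the copies, AGGTCANAGGTCA. Promoter windows of RefSeq (build GRCm38.p6, from 250 bases before the transcription start to 50 after it) were found for 27 of the 31 genes and searched on both strands. No member held the exact repeat, which 0.0481% of all 27025 genes with a window did. With up to 2 mismatches it was found in 5 of 27 members, or 18.5%, against 4.40% of all genes. A gene counted if any of its windows matched, and the 27025 genes had 32851 windows. The exact element of the estrogen-related receptors, TNAAGGTCA, whose last 6 bases are the same hexamer and so can overlap the repeat, was in 0 of 27 members and in 1.43% of all genes. These counts cover only letters within the window and say nothing of binding. The 250 bases before the start are printed for the matches that lie upstream, 5′ to 3′ on the strand of the gene with the match in capitals, because they belong to members of different roles whose values across libraries are set side by side below: a transporter, a beta-oxidation enzyme, an electron carrier and an uncoupling protein. The windows are chr7:100472741-100472990 on the plus strand for Ucp3, chr5:17835897-17836146 on the minus strand for Cd36, chr9:55512244-55512493 on the minus strand for Etfa and chr7:140116422-140116671 on the minus strand for Echs1.
Ucp3: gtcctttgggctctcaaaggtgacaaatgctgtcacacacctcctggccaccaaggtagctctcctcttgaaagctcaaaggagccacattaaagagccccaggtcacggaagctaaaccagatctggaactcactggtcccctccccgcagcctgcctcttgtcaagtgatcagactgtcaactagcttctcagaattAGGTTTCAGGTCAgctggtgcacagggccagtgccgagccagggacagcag
Cd36: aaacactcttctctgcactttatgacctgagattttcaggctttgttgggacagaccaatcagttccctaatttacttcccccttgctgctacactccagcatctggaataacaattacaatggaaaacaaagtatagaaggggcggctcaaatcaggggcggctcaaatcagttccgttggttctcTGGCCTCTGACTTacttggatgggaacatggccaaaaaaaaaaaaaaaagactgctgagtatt
Etfa: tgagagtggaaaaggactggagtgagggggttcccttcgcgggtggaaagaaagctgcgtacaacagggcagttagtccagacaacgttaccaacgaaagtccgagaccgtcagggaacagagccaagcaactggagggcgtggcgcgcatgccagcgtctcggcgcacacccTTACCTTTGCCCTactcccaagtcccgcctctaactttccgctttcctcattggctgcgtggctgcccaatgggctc
Echs1: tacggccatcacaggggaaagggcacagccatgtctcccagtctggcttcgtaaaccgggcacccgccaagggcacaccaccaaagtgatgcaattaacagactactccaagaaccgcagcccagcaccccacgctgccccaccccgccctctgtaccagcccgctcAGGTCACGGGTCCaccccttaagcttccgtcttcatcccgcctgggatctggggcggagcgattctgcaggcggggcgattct
The match began 51 bases before the start in Ucp3, 63 in Cd36, 77 in Etfa and 83 in Echs1, and those of Cd36 and Etfa lay on the reverse strand. The Cd36 window lies inside the gene as annotated (chr5:17781690-17888801, minus strand), so its start is an internal one. In the fifth member, the carnitine carrier Slc25a20, the match AGGTGAAAGGTCG began at base 7 of the transcript. Cd36, Etfa, Echs1 and Slc25a20 rose in the libraries of 5 months, as given next, whereas Ucp3 varied within both ages. Over all members 15 of 31 rose, and a link between the match and age was not tested.

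Most changes of these genes were by age. Of the 31 members, 15 (48.4%) were higher at 5 months than at 14 months with limma at an adjusted p under 0.05 (Benjamini-Hochberg over all genes tested), against 16.0% of all genes. A further 2 members (6.45%), Acsl1 and Cpt1b, were lower, against 17.7% of all genes. The median fitted difference of log2(value + 1), 5 minus 14 months, was 0.42 over the members and -0.02 over all genes tested, and 22 of 31 members lay above 0. The members' median was 0.54 within WT and 0.34 within KO. Both libraries of 5 months exceeded all 4 of 14 months in 17 of 31 members, against 25.0% of all genes, and lay below all 4 in the same 2 members that fell, against 25.7%. Age here is also replicate number: both 5-month libraries are numbered 3, so age and anything else that sets the libraries numbered 3 apart cannot be told apart. The libraries numbered 2 also stood apart, in both genotypes. Y-linked genes summed to 54.9 in WT-2 and 82.2 in KO-2 against 2496 to 4482 in the other 4. By these genes apparent sex, which the labels do not give, was mixed in the 14-month group and uniform in the 5-month group. Without the libraries numbered 2, a fit with 1 residual degree of freedom called 10 of 31 members higher and 0 lower. Of the 13823 genes tested it called 3011 in either direction. The members' median was 0.41 and that of all genes -0.02. Pdk4 and Ucp3, not called in the fit of all libraries, were among the 10 members called higher. Acsl1, Acadvl, Decr1, Eci2, Cd36, Cpt1b, Etfdh, Slc25a20 and Mlycd were then not called.

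Rescaling each library to its nuclear-encoded total left 10 members higher and 4 lower. It moved the split over all genes from 2216 higher among 4663 called to 1233 higher among 4636. The median of the members became 0.22 and that of all genes -0.22.

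**Figure D2:**
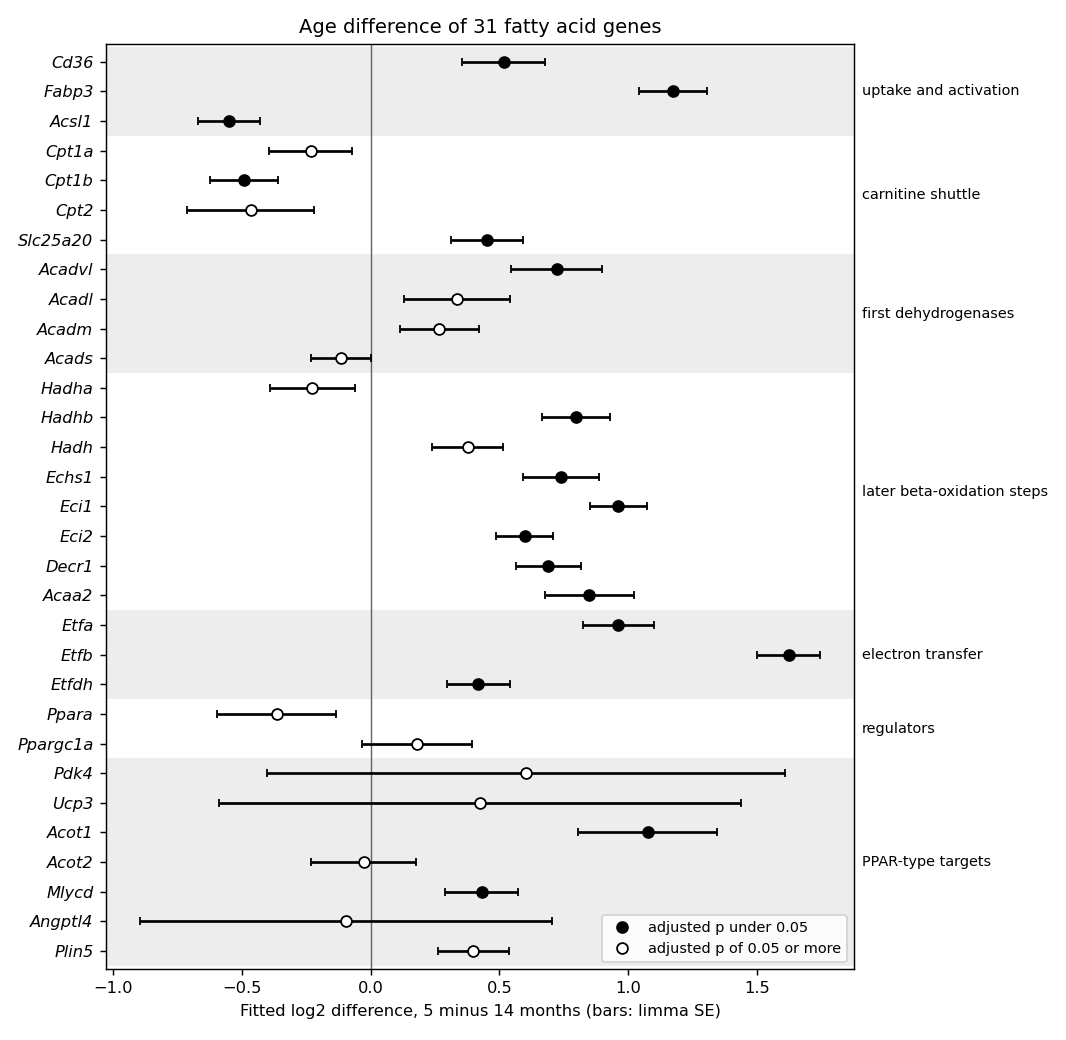
Fitted log2 difference (5 minus 14 months) of each member, with bars of 1 limma standard error and filled points for an adjusted p under 0.05. The 3 electron-transfer genes and most later beta-oxidation genes lie to the right of 0, while Acsl1 and Cpt1b are the filled points to the left.

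Cd36 and Fabp3 rose while Acsl1 fell. Fabp3 was at 31482, 33768 and 78686 across WT-1 to WT-3 and at 30365, 27343 and 60699.6 across KO-1 to KO-3. Both 5-month libraries were well above the rest, with a mean of 69693 ± 12718 (SD, n = 2) against 30740 ± 2671 (n = 4). The difference was 1.17 on the log2(value + 1) scale (SE 0.13, limma adjusted p = 0.000865), a 2.25-fold change. Cd36 also passed, at 0.52 (SE 0.16, limma adjusted p = 0.0416), with 25013.5 to 30459.5 at 14 months against 36053 in WT-3 and 47126 in KO-3. Acsl1 was at 13718, 14826 and 10173 across WT and 14509, 13603.5 and 9186 across KO, so the 2 lowest values were those of 5 months. Acsl1 fell by 0.55 (SE 0.12, limma adjusted p = 0.0107).

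The carnitine shuttle had no common direction. Cpt1b, which makes acylcarnitine at the outer membrane, was at 7366, 9239 and 5796 across WT and 7539, 7494 and 5406 across KO. The 5-month values were again the 2 lowest, and Cpt1b fell by 0.49 (SE 0.13, limma adjusted p = 0.0229). Slc25a20, the carrier that exchanges acylcarnitine for carnitine, rose by 0.45 (SE 0.14, limma adjusted p = 0.0400), from 1937 to 2493 at 14 months to 2737 and 3331 at 5 months. Cpt1a at -0.23 (limma adjusted p = 0.299) and Cpt2 at -0.47 (limma adjusted p = 0.182) did not pass.

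All 3 electron-transfer genes rose. Etfb, a subunit of the electron-transfer flavoprotein (chr7:43444083-43457800, plus strand, mm10), was at 3706, 3679 and 12713 across WT and 3501, 3525 and 9691 across KO. The 4 libraries of 14 months differed little from one another, and both of 5 months were far above them. Etfb showed the biggest age difference of the members, 1.62 (SE 0.12, limma adjusted p = 0.000206), a 3.08-fold change with a 95% interval of 2.53 to 3.75. Its partner subunit Etfa was at 6480.05, 6050.2 and 14197 across WT and 6054, 6334 and 10358.5 across KO, a rise of 0.96 (SE 0.14, limma adjusted p = 0.00204). Etfdh, which passes these electrons to ubiquinone, rose less, by 0.42 (SE 0.12, limma adjusted p = 0.0330), from 7673 to 8446 at 14 months to 9837 and 12149.5 at 5 months.

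Of the 8 genes of the later steps of beta-oxidation, 6 rose and none fell. Hadhb was at 21460.1, 20732 and 39688 across WT and 20169, 22638 and 34276 across KO. The 5-month values did not overlap the others, and the difference was 0.80 (SE 0.13, limma adjusted p = 0.00346). Eci1, an isomerase that prepares unsaturated fatty acids, was at 2337, 2426 and 4862 across WT and 2369.5, 2519.6 and 4543 across KO, with a difference of 0.96 (SE 0.11, limma adjusted p = 0.000933). The related isomerase Eci2 was at 2359, 2222 and 3478 across WT and 2185, 2327 and 3402 across KO, with a difference of 0.60 (SE 0.11, limma adjusted p = 0.00522). In both isomerase genes WT-3 and KO-3 were close to each other and above all libraries of 14 months. Decr1, a reductase for polyunsaturated acyl chains, was at 4968, 4683 and 8585 across WT and 5424, 4847 and 7489.8 across KO, with a difference of 0.69 (SE 0.13, limma adjusted p = 0.00527). Echs1, the short-chain hydratase, was at 3552, 3407 and 7019 across WT and 3589, 3745 and 5062 across KO, with a difference of 0.74 (SE 0.15, limma adjusted p = 0.00715). Acaa2, the thiolase that releases acetyl-CoA, was at 7623, 6838 and 16691 across WT and 7616, 7199 and 10396 across KO, with a difference of 0.85 (SE 0.17, limma adjusted p = 0.00815). For Decr1, Echs1 and Acaa2 the highest library was WT-3 and the next KO-3, and without WT-3 the difference was 0.49 for Acaa2 and 0.47 for Echs1. Hadh at 0.38 (limma adjusted p = 0.0667) did not pass.

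Hadha and Hadhb encode the alpha and beta subunits of the trifunctional protein and lie next to each other on chromosome 5, transcribed in opposite directions (Hadha chr5:30118304-30155162, minus strand, and Hadhb chr5:30155248-30184593, plus strand, mm10). Hadha was at 21277, 20699 and 22477 across WT and 20542, 21784 and 14428 across KO. Its 5-month libraries were the highest and the lowest of the 6, and its age difference was -0.23 (SE 0.17, limma adjusted p = 0.323). The subunit genes thus gave values of 0.80 and -0.23 in the same libraries, and the difference between the genes was not tested.

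Of the 4 acyl-CoA dehydrogenases, 1 passed. Acadvl, for very long chains, was at 8269, 8006.5 and 17518 across WT and 8341, 8739 and 10794 across KO. Both 5-month values were above the rest, WT-3 far more so, and the difference was 0.72 (SE 0.18, limma adjusted p = 0.0167). It was 0.34 without WT-3 and 1.11 without KO-3. It became 0.68 without WT-1, with a limma adjusted p of 0.0557, in a range of 0.000389 to 0.0557 over its alternatives. Acadm was at 17090.3, 14437 and 22221 across WT and 16046, 17021 and 16911 across KO. WT-3 was highest and KO-3 lay among the libraries of 14 months. The differences of Acadm at 0.27 (limma adjusted p = 0.212), Acadl at 0.33 (limma adjusted p = 0.243) and Acads at -0.12 (limma adjusted p = 0.483) did not pass.

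Among the PPAR-type targets, 2 of 7 rose, and neither regulator passed. Acot1 was at 153, 186 and 287 across WT and 212, 114 and 408 across KO, with a difference of 1.08 (SE 0.27, limma adjusted p = 0.0184). KO-3 was highest and WT-3 next. The call on Acot1 was lost without KO-3 (0.76, limma adjusted p = 0.162), after rescaling to the nuclear total (0.88, limma adjusted p = 0.0671) and with limma's trend and robust options off (limma adjusted p = 0.0504). The lowest adjusted p over its alternatives was 0.00774. Acot1 and Acot2 are similar in sequence, and 29.2% of the 31-base words of the Acot1 principal transcript also occur in Acot2, so how reads were divided between them is uncertain. Mlycd, malonyl-CoA decarboxylase, which relieves the block on Cpt1, had a difference of 0.43 (SE 0.14, limma adjusted p = 0.0498), with 853 to 1155 at 14 months against 1285 and 1384 at 5 months. The lipid droplet protein Plin5 had 0.40 (limma adjusted p = 0.0574) and the mitochondrial thioesterase Acot2 -0.03 (limma adjusted p = 0.928). The receptor Ppara had -0.37 (limma adjusted p = 0.253) and Ppargc1a 0.18 (limma adjusted p = 0.550).

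Between genotypes no member passed with all libraries in the fit. With limma 0 of 31 members, and 0% of the 13823 genes tested, reached an adjusted p under 0.05, and limma-voom on the same values also called 0 members. At an unadjusted p under 0.05, 0 of 31 members were found, against 6.08% of all genes (841). Every KO value exceeded every WT value in 0 of 31 members, against 2.88% of all genes, and every KO value was under every WT value in 0 of 31, against 2.89%. The median fitted difference, KO minus WT, was -0.11 over the members and -0.02 over all genes, with 25 of 31 members below 0. Rescaling to the nuclear total shifted the members' median to -0.0007 and that of all genes to 0.08, which left the gap between them nearly as it was. After quantile normalization the median was 0.0045 over the members and -0.0088 over all genes, so the sign of the members' median depends on the scaling. In the same-number pairs the median was 0.02 for KO-1 minus WT-1, -0.06 for KO-2 minus WT-2 and -0.27 for KO-3 minus WT-3, where 23 of 31 members were below 0. It was -0.02 when only the libraries of 14 months were compared.

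The groups of the 8 members with the smallest genotype p overlapped when both ages were pooled. Within each age KO lay below WT without overlap in 2 of 31 members, Fabp3 and Etfb, against 10.1% of all genes, and above WT in 0, against 8.43%. The same-number pairs differed by -0.05, -0.30 and -0.37 for Fabp3 and by -0.08, -0.06 and -0.39 for Etfb. Cpt2 had a difference of -0.52 (SE 0.23, 95% interval -1.06 to 0.02, limma adjusted p = 0.745), with means of 2246 ± 851 in KO and 3042 ± 220.1 in WT (SD, n = 3 each). Fabp3 had -0.24 with an interval of -0.53 to 0.04, and Acadl -0.33 with an interval of -0.78 to 0.11. Ppargc1a was at 3213, 1794 and 2597 across WT and 1710.4, 1919.8 and 2149 across KO, a difference of -0.36 with an interval of -0.83 to 0.10, and WT-1 was its highest library. The other 4 were Etfb at -0.18, Hadha at -0.21, Acot2 at -0.25 and Etfa at -0.16, each with a limma adjusted p of 0.745 to 0.754. Acot2 was at 802, 1246 and 1059.7 across WT and 1031, 763 and 805 across KO. In the libraries of 14 months alone, and likewise without WT-3 or without KO-3, the value was -0.10 for Cpt2, -0.01 for Acadl, -0.02 for Etfa, -0.07 for Etfb and 0.01 for Hadha. Ppargc1a was at -0.11 without WT-1, and Acot2 at -0.09 without WT-2. The widest intervals belonged to Pdk4, Ucp3 and Angptl4. For Pdk4 the genotype difference was 0.06 with an interval of -2.62 to 2.73, so even a large change in either direction was not detectable with 3 libraries a group.

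**Figure D3:**
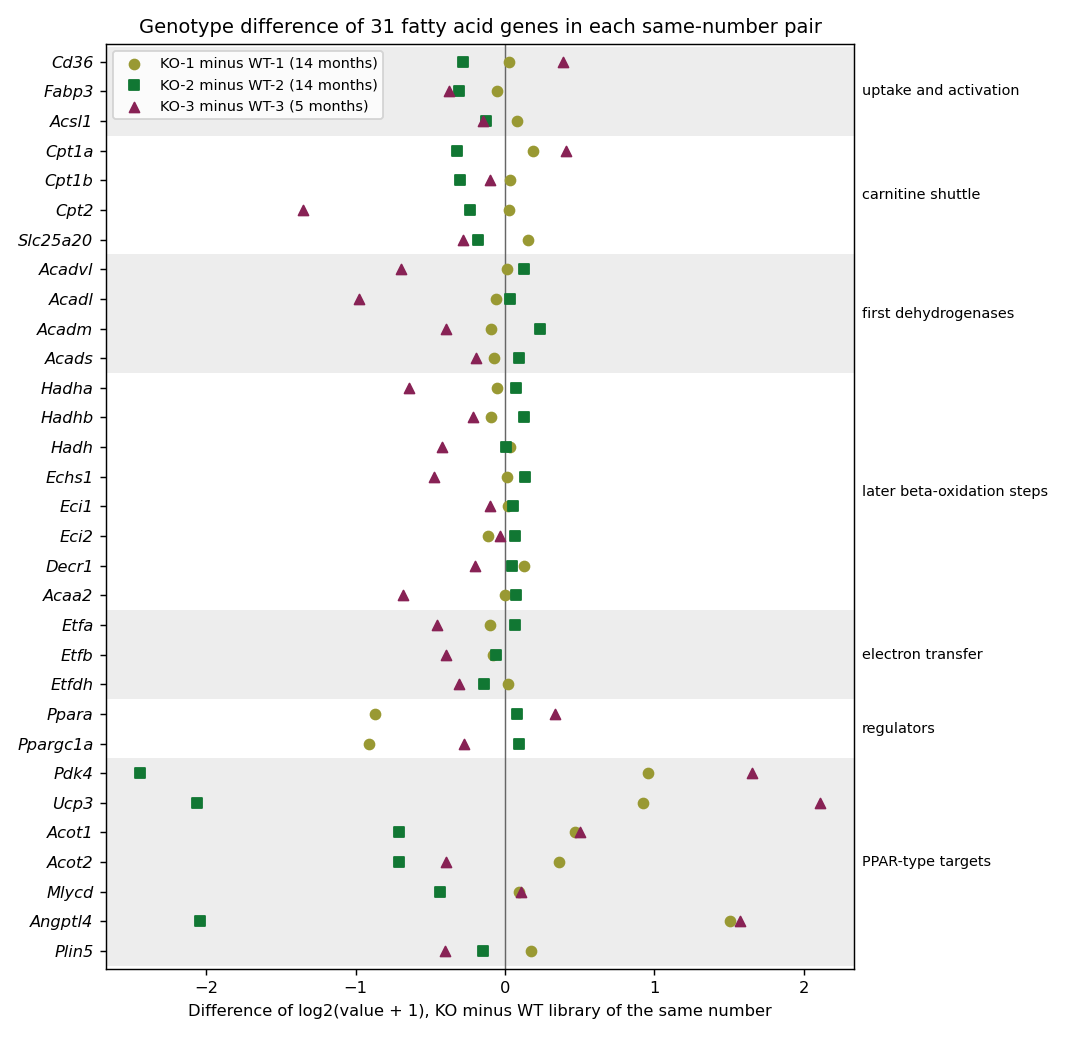
Difference of log2(value + 1), KO minus WT, for each member in each same-number pair. The pairs of 14 months lie close to 0 for most enzymes, the 5-month pair lies to the left for Cpt2, Acadl, Acadvl, Acaa2 and Hadha, and Pdk4, Ucp3 and Angptl4 scatter to both sides.

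A model with a genotype-by-age term asked whether the genotype difference at 5 months differed from that at 14 months. It rests on WT-3 and KO-3 alone at 5 months and has 2 residual degrees of freedom, so the lone library of each genotype is assumed to vary like those of 14 months. In this model 3 of 31 members (9.68%) had a lower value for KO at 5 months than the 14-month difference predicts, against 1.19% of all genes, and 0 were higher, against 0.883%. The members' median was -0.22 and that of all genes -0.05.

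The 3 genes were Cpt2, which regenerates long-chain acyl-CoA inside the mitochondrion, and the dehydrogenases Acadl and Acadvl. Cpt2 (chr4:107903981-107923610, minus strand, mm10) was at 2829, 3030.05 and 3268 across WT and 2878, 2581 and 1278.5 across KO. KO-3 was the single low library, and the pairs differed by 0.02, -0.23 and -1.35. The interaction was -1.25 (SE 0.16, limma adjusted p = 0.0293). Acadl (chr1:66830839-66863277, minus strand, mm10) was at 11263, 10793 and 19446 across WT and 10819.5, 11079.5 and 9867 across KO. Here WT-3 was the high library and KO-3 lay just under the other 4, and the pairs differed by -0.06, 0.04 and -0.98. The Acadl interaction was -0.97 (SE 0.13, limma adjusted p = 0.0293). For Acadvl (chr11:70010183-70015411, minus strand, mm10), whose values are given above, the pairs differed by 0.01, 0.13 and -0.70, and the interaction was -0.77 (SE 0.13, limma adjusted p = 0.0406). Hadha, next in order of p, had -0.65 (SE 0.13, limma adjusted p = 0.0557), with pairs at -0.05, 0.07 and -0.64.

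**Figure D4:**
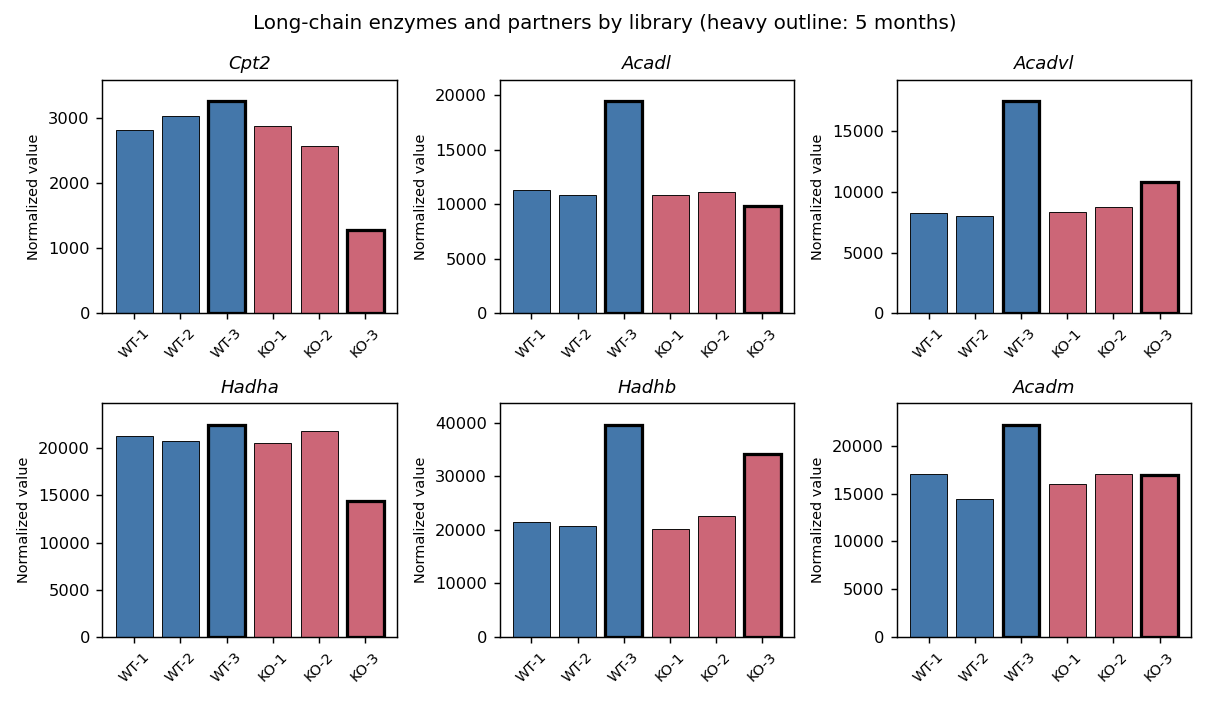
Normalized value of 6 genes in each library, as bars from 0, with WT in blue, KO in red and a heavy outline for 5 months. For Cpt2 and Hadha the KO library of 5 months is the low one, for Acadl and Acadvl the WT library of 5 months is the high one, and for Hadhb both 5-month libraries are high.

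None of the 3 calls held without WT-1 or without WT-2. Cpt2 then had limma adjusted p values of 0.0789 and 0.0985, in a range of 0.0296 to 0.177 over its alternatives, Acadl 0.0789 and 0.1002 in a range of 0.0270 to 0.183, and Acadvl 0.105 and 0.126 in a range of 0.0398 to 0.201. Acadvl was also lost without KO-2, at a limma adjusted p of 0.0551. All 3 kept their sign in the 12 alternatives that could be fitted. Removing from each library the trends with transcript length and GC content left Cpt2 called, and gave Acadl a limma adjusted p of 0.0547 and Acadvl 0.0931.

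Markers of cell types moved in the same libraries. The 10 cardiomyocyte markers summed to 690103 to 796237 at 14 months, 1311910 in WT-3 and 824781 in KO-3. Of them 5 rose (50%, against 16.0% of all genes) and 1 fell (10%, against 17.7%) at 5 months. Actc1 and Myh6 passed the interaction with negative values, 2 of 10 (20%) against 1.19% of all genes. Actc1 was at 42240 in KO-3 and at least 121168 elsewhere. Myh6 was at 400427 in WT-3 and 159955 to 196546 elsewhere. Endothelial markers (7 of 7 present) summed to 8978 and 9453 at 5 months and 12052 to 15469 at 14 months, and fibroblast markers (8 of 8) to 12359 and 19000 against 17824 to 20516. Adipocyte markers (12 of 12) summed to 8744 to 28023, highest in KO-2. Car3, Cfd and Pck1 passed the interaction with negative values, 3 of 11 tested or 27.3%, against 1.19% of all genes. Car3 was at 396, 557 and 722 across WT and 1250, 1757 and 272 across KO. Pck1 was at 147, 124 and 166 across WT and 469, 823 and 78.7 across KO. Cfd was at 124, 140 and 420 across WT and 210, 235 and 204 across KO. In each of these 3 genes KO was above WT at 14 months and below WT at 5 months. The brown adipocyte markers (6 of 6) summed to 3337 to 4405 at 14 months, 17095 in WT-3 and 11769 in KO-3. Most of that sum was Cox8b, at 2249 to 2662 at 14 months against 16253 and 10900.3. Ucp1, the defining gene of brown fat, did not share this rise at 5 months. Ucp1 was at 108, 8.71 and 26.5 across WT and 465, 788 and 4.26 across KO. Erythroid markers (5 of 5) summed to 66820 in WT-1 and 2727 to 19386 elsewhere. Across the 31 members the age difference had a Spearman correlation with transcript length of -0.42, and across 13779 genes of -0.27, as a description over genes that share the same 6 libraries. The part of cell make-up and of transcript length in the differences of the members was not tested beyond the fit without length and GC trends.

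Pdk4, Ucp3 and Angptl4 followed neither label. Ucp3, a mitochondrial uncoupling protein of muscle, and Angptl4 are described in full because their values stood out. Pdk4 (chr6:5483351-5496309, minus strand, mm10) was at 4926, 23762 and 7169 across WT and 9581, 4374 and 22557 across KO. Ucp3 was at 364, 1754 and 423 across WT and 692, 419.8 and 1832 across KO. Angptl4 was at 106, 380.1 and 98.8 across WT and 303, 91.5 and 296 across KO. In each of the 3 genes WT-2 and KO-3 were among the 3 highest libraries, KO-1 was the other, and WT-1, WT-3 and KO-2 were the 3 lowest. The highest value was 5.43 times the lowest for Pdk4, 5.03 times for Ucp3 and 4.15 times for Angptl4. WT-2 and KO-3 differ in both genotype and age, so the pairs went in opposite directions: Pdk4 differed by 0.96, -2.44 and 1.65 and Ucp3 by 0.93, -2.06 and 2.11. Neither age (Pdk4 0.60, SE 1.00, limma adjusted p = 0.687) nor genotype gave a call with all libraries. Without the libraries numbered 2, a fit chosen after seeing the data had 1 residual degree of freedom. In it Pdk4, Ucp3 and Angptl4 were the 3 members called by genotype, higher in KO, among 39 of the 13823 genes tested. The difference was 1.31 for Pdk4, 1.52 for Ucp3 and 1.54 for Angptl4. Their standard errors there were 0.28, 0.25 and 0.29, against 0.95, 0.96 and 0.75 with all libraries. That fit took its spread largely from other genes, so its p-values do not measure the spread of these 3 genes between libraries. Over the 18 other alternatives the limma adjusted p by genotype was at least 0.754 for each of the 3. The fit without the libraries numbered 2 also called Pdk4 at 0.89 and Ucp3 at 0.81 higher at 5 months. It did not call Angptl4 by age, at -0.07. KO-2 was below WT-2 in each of these genes. Ppara, the receptor itself, was at 633, 495 and 338 across WT and 346, 525 and 426 across KO, and its highest library was WT-1.

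**Figure D5:**
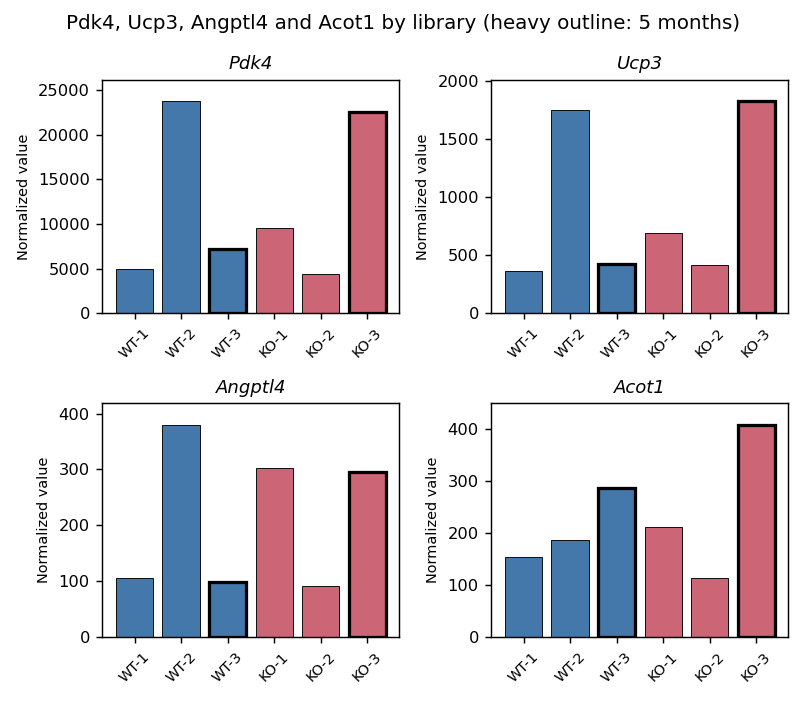
Normalized value of Pdk4, Ucp3, Angptl4 and Acot1 in each library, as bars from 0, with WT in blue, KO in red and a heavy outline for 5 months. Pdk4 and Ucp3 are high in WT-2 and KO-3, Angptl4 also in KO-1, and Acot1 in both 5-month libraries.

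The wider pathway was read from 92 further genes, of which 88 could be tested. At 5 months 23 (26.1%) were higher, against 16.0% of all genes, and 18 (20.45%) were lower, against 17.7%, with limma at an adjusted p under 0.05. Their median was 0.05, so the set as a whole did not share the direction of the 31. The 20 further genes of mitochondrial oxidation came closest, with 11 higher (55%) and 2 lower (10%). The 6 biggest rises were Fabp5 at 0.99, Hsd17b10 at 0.97, the isomerase Ech1 at 0.91, Gpihbp1, which anchors lipoprotein lipase to capillaries, at 0.90, Acot13 at 0.84 and Acad8 at 0.78. The 6 biggest falls were Acaca, acetyl-CoA carboxylase, at -2.10, Lpin1 at -1.16, Bdh1 at -1.08, Acsl5 at -1.002, Ppard at -0.92 and Esrrb at -0.92. Acaca was at 384, 439 and 193 across WT and 1123, 2009.8 and 173 across KO, so KO-1 and KO-2 carried much of its difference. Of 16 further genes of uptake, lipases and droplets that could be tested 3 rose (18.75%) and 4 fell (25%). Among those that fell was the transporter Slc27a4 at -0.65. Among 17 regulators 3 rose (Esrra, Sirt3 and Tfam, 17.6%) and 5 fell (29.4%). In both lists the share that rose lay near the 16.0% of all genes.

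By genotype 0 of the 88 passed with limma, and 8 (9.09%) had an unadjusted p under 0.05, against 6.08% of all genes. The 4 smallest were Nrip1 at 0.61, Ppargc1b at 0.56, Gpihbp1 at -0.37 and Klf15 at -0.40, each with a limma adjusted p of 0.745. In the interaction 3 (3.41%) passed with negative values, against 1.19% of all genes. They were Cidea at -1.47, Lpl at -1.13 and Pccb at -1.03, with limma adjusted p of 0.0320, 0.0293 and 0.0457. Cidea, also on the list of brown adipocyte markers, was at 293, 259 and 477 across WT and 498, 542 and 325 across KO. Its negative value thus combines KO above WT at the older age with KO below WT at 5 months. Lpl, lipoprotein lipase, which frees the fatty acids that Cd36 takes up, was at 82971, 72879.7 and 123225 across WT and 70972, 73256 and 52215 across KO. Its highest library was WT-3 and its lowest KO-3, the order also seen for Acadl and Hadha.

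Some members share sequence with other annotated genes, which limits how reads could be assigned. Of the 31-base words of the principal transcript, 93.7% of those of Cpt1b also occur in Gm44502, 68.0% of those of Etfb in Gm45233, 64.7% of those of Hadhb in Gm13910 and 35.2% of those of Fabp3 in Fabp3-ps1. The partners were at most 1.48%, 0.186% and 0.0160% of the value of Cpt1b, Etfb and Fabp3 in any library, and Gm13910 was listed at 0 throughout. Eci2 shares 12.2% of its words with Eci3, which was at most 0.271% of its value. Acadm shares 11.8% of its words with Gm5131, which was not used here.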

How the data were processed

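RNA was extracted with Trizol from flash-frozen hearts and Illumina libraries were made at BGI from total RNA, per the labels' protocols. Salmon 1.5.2 and mm10 are named in the submitters' processing notes. Each value that the authors deposited is a normalized signal per gene. It is no read count, since only 42.1% to 48.0% of low values were whole multiples (within 0.1) of a step set from the commonest low value. The normalization step is not given in the sources used here. A total of 108 broken lines were left out. Of 20254 identifiers 20146 matched GENCODE M21, on GRCm38.

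Genes at 10 or more in at least 3 of 6 libraries were tested, on log2(value + 1), with limma 3.58.1 in R 4.3.3 (trend and robust options). Age was a covariate for genotype and genotype for age, and p-values were adjusted by Benjamini-Hochberg over 13823 genes, with a threshold of 0.05. The fit was tested on simulated data before use. Nothing in the labels says more of the replicates than their numbers, so p-values measure the spread between these samples. In the fit without the libraries numbered 2, with 1 residual degree of freedom, the spread was largely taken from other genes. Samples with the same number deviated together from their group means over all genes (correlations of 0.390, 0.383 and 0.617), as did WT-1 with KO-2 (0.382) and WT-2 with KO-1 (0.369). The numbers were tried as a replicate block. Alternatives were the pseudocount, the filter, the scaling, limma-voom, leaving out each library, the libraries of 14 months alone and, added after seeing the data, the removal of length and GC trends and leaving out both libraries numbered 2.

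Full values are given for the 12 members of biggest age difference among those called, the 8 of smallest genotype p, the 4 of smallest interaction p and the most abundant member per kb of each role. Of further pathway genes at most 6 called in each direction are named, or else the 4 of smallest genotype p. The members and lists were chosen with earlier results of these data known.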

Additional observations from a re-analysis of the deposited data

Results flagged for a closer look

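For 3 members the genotype difference at 5 months differed from that at 14 months by the interaction term. The value was -1.25 for Cpt2, -0.97 for Acadl and -0.77 for Acadvl on the log2(value + 1) scale, with limma adjusted p of 0.0293, 0.0293 and 0.0406. Each rests on 1 library of each genotype at 5 months, and none was called without WT-1 or without WT-2. Over 12 alternatives the call was lost in 5 for Cpt2, in 7 for Acadl and in 9 for Acadvl.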

How the results depend on the processing

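With 1 library of each genotype at 5 months, the interaction could not be fitted without WT-3 or without KO-3. Members called by genotype were 0 in 18 of 19 alternatives and 3 (Pdk4, Ucp3 and Angptl4, all higher) without the libraries numbered 2. Genes called by genotype, 0 in all libraries, numbered 14 (7 of them higher) in the libraries of 14 months alone, 39 without those numbered 2 and 0 to 5 when 1 library was left out, with 5 without WT-3 and without KO-3 and 1 without WT-2. The genotype difference of Hadha turned from -0.21 to 0.0115 in the libraries of 14 months alone, and ranged from -0.29 to 0.0115 when 1 library was left out. With numbers as a replicate block the genotype median of the members was -0.11, as without it, and 0 genes were called, so the block changed no call. Genes called by age, 4663 in all libraries, numbered 3011 without those numbered 2. Members called by age numbered 17, and 10 without those numbered 2, with Pdk4 and Ucp3 among the 10. They numbered 10 with limma's trend and robust options off, and 12 to 18 when 1 library was left out. Their median was 0.22 after rescaling to the nuclear total, against 0.42. Of the 12 members named by age, the calls on Acot1 (3 of 15 alternatives) and Acadvl (3 of 15) were lost in some, and those on Decr1, Eci2 and Acsl1 without the libraries numbered 2. Fabp3 fell to 0.58 after quantile normalization, Etfa to 0.44 without length and GC trends, and Acadvl to 0.34 without WT-3 and rose to 1.11 without KO-3. Genes called by the interaction, 287 in all libraries, numbered 4 with no filter, 750 after rescaling to the nuclear total, 12 after quantile normalization, 7 with trend and robust options off, 559 with limma-voom, 78 without length and GC trends and 13 to 234 when 1 library was left out (15 without WT-1 and 13 without WT-2). Members called by it, 3 in all libraries, numbered 0 with no filter, 0 after quantile normalization, 0 with those options off, 1 without length and GC trends, and 0 to 3 when 1 library was left out. The cause of these changes was not tested.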
